A study of Mus musculus with 8 samples.

Results

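At 1951 transcription start site (TSS) clusters of mouse embryonic stem cells (mESCs), the stretch of DNA that spans the central part of initiation was at least 3 bp longer in both Pwwp2a/b double knockout (DKO) clones than in wild-type cells. These were 6.10% of the 31968 clusters whose chromosome, start, end and strand were identical in the 3 lines, where E14 had 32857 clusters in all, A1 33005 and C7 32870. The opposite set, at least 3 bp narrower in both clones, had 654 clusters, or 2.05%. The members were therefore chosen by their widths, and the widths below describe them and are not tested. The largest gains lay at the promoters of Mt1, Seh1l, Capn15, Mt2 and Eif5a. Most members lay at annotated promoters, and the edge that moved was more often the downstream one.

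CAGE-seq captures the cap at the 5′ end of RNA made by RNA polymerase II and reads the first bases behind it, so each read marks a base at which transcription began. Few promoters start at 1 base only. Sharp promoters, often with a TATA box, use a narrow stretch, whereas broad promoters, often rich in CpG, use many start sites over a long stretch. The interquantile region is the stretch between the bases at which 0.1 and 0.9 of a cluster's signal has accumulated, and its width is a usual measure of promoter shape. Only its edges are set by the signal, so an edge can move to a distant start while the bases between hold none. The dominant TSS is the base with the highest signal in the cluster. PWWP2A and PWWP2B are chromatin proteins that bind H3K36me3, a histone mark of transcribed gene bodies, and join the MTA, HDAC and RBBP subunits of the NuRD complex in a histone deacetylase complex.

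The cells were E14, a wild-type mESC line, and clones A1 and C7, both carrying a double knockout of Pwwp2a and Pwwp2b. Nuclear RNA was read in 3 libraries of E14, 2 of A1 and 3 of C7, all from cells kept in serum and LIF on gelatine. The replicates of each line had been merged before clusters were called, so a width has no replicate error and no test was possible, and each knockout line is a single clone. The cluster lists carry no signal values, so the depth behind a cluster is unknown. Both clones were compared with the same E14 data. Of 10 embryonic stem cell marker genes, all 10 had a promoter cluster in each line, as did 1 of 8 genes of differentiated lineages and 3 of 6 fibroblast markers, with Postn, Lum and Dcn having none. Pwwp2a kept 1 promoter cluster in every line, with interquantile widths of 36 bp in E14, 36 bp in A1 and 35 bp in C7, and Pwwp2b had none in any line. A cluster at the start of Pwwp2a does not check the knockout.

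The stretches that the clones added to the region follow for members that recur in the results, from the largest promoter gains to regulators of pluripotency, a NuRD subunit and coding exons. Each run is the strand of the RNA, 5′ to 3′, and holds at most 30 bases. Lower case marks bases inside the E14 interquantile region, and capitals mark bases gained in both clones, with at most 20 of them shown next to the old edge. A gained base lies inside the region of both clones and need not be a start itself. Coordinates are on mm10.
Mt1, chr8:94179164-94179193, plus strand: CCGCCTGCTGGGTGCAAACCctttgcgccc
Mt2, chr8:94172761-94172784, plus strand: TCGCGCTCCGCGTGCTTCTCtcca
Eif5a, chr11:69920523-69920552, minus strand: gtgggcgcgaGCCGGCAACCCTCAGCGCAA
Capn15, chr17:25985695-25985724, minus strand: aagcagcgtaAGGCGTAGCGGGTAGGCCGG
Josd2, chr7:44468054-44468083, plus strand: tcgggaatcgCAGTTCGGCGCGCGCAAGTC
Lrrc31, chr3:30699860-30699889, minus strand: TGCCTGCACTCTGGTACGCCacctgacaat
Nap1l1, chr10:111473225-111473254, plus strand: gtcttttttaGCGCCATCTGCTCGCGGCGC
Pou5f1, chr17:35506253-35506282, plus strand: gtattggggaTCTCCCCATGTCCGCCCGCA
Sox2, chr3:34650003-34650024, plus strand: gtctattaacTTGTTCAAAAAA
Mta2, chr19:8941943-8941972, plus strand: ctgggccttgTTCTCCGGATCGGCCGAAGG
Hnrnpd, chr5:99978730-99978750, minus strand: gTCTAGGGTGCCTCGCGAGGT
Hspa5, chr2:34775638-34775667, plus strand: TTGAAGTCACTTTTGAGATAgatgttaatg
Top1, chr2:160687707-160687736, plus strand: ATATTAAGCCATTGAAGAGGcttcgagatg
Calr, chr8:84845865-84845884, minus strand: cTCAGAATATAACATCATGT
A run that begins with capitals gained bases upstream, as at Mt1 and Hspa5, and a run that ends with them gained bases downstream, as at Eif5a and Calr. The bases of Lrrc31, Nap1l1 and Sox2 were taken from RefSeq promoters and the others from GENCODE transcripts.

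The metallothioneins Mt1 and Mt2, small proteins that bind zinc and copper, both widened on the upstream side. The Mt1 cluster (ENSMUSG00000031765.8, chr8:94179045-94179301, plus strand) had an interquantile region of 58 bp in E14, 109 bp in A1 and 111 bp in C7. Its dominant TSS was at an annotated transcript start in all 3 lines. The downstream edge did not move, so that the 51 and 53 bp gained all lay before the old region. The Mt2 cluster (ENSMUSG00000031762.7, chr8:94172536-94172857, plus strand) had 4 bp in E14, 46 bp in A1 and 38 bp in C7. Here too the downstream edge and the dominant TSS stayed in place, at -76 bp from the nearest annotated start. The bases shown above for both genes came from GENCODE transcripts. They thus lie inside an annotated exon and not before every annotated start of the locus. Both clones were thus far above E14 at both genes, and at Mt2 they differed from each other by less than either differed from E14.

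Eif5a encodes a translation factor that carries the modified amino acid hypusine. Its cluster (ENSMUSG00000078812.10, chr11:69920510-69920577, minus strand) had a region of 23 bp in E14 and 55 bp in both A1 and C7, with all 32 bp added downstream. Capn15, a calpain family gene, had 77 bp in E14 and 112 bp in both clones (chr17:25985653-25985807, minus strand), again with the whole gain of 35 bp downstream. Josd2, which encodes a deubiquitinase, had 70 bp in E14 and 101 bp in both clones. At these 3 promoters A1 and C7 had the same first and last base. Pip4k2b, a phosphatidylinositol phosphate kinase gene, had 55 bp in E14, 93 bp in A1 and 87 bp in C7, so the clones had the same side but not the same last base. Wdr73 had 9, 39 and 43 bp, and Fam216a had 19, 60 and 51 bp in E14, A1 and C7.

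Seh1l, which encodes a component of the nuclear pore, had the second largest gain, from 37 bp in E14 to 74 bp in A1 and 75 bp in C7, on the upstream side. Its downstream edge drew back by a few bases while the upstream edge went out by 42 and 44 bp. At Lrrc31 the region went from 39 bp to 69 and 70 bp, and the gain was also upstream. In most of the 12 promoter clusters with the largest gains the dominant TSS did not move. The exceptions were Ugp2, the gene of UDP-glucose pyrophosphorylase, and Crem, a cAMP-responsive transcription factor gene. At Ugp2 the region went from 41 to 72 bp in both clones, and the dominant TSS lay 22 bp further upstream in both. At Crem it went from 110 to 140 bp in both clones, and the dominant TSS lay 76 bp further downstream in A1 and 99 bp in C7.

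**Figure D1:**
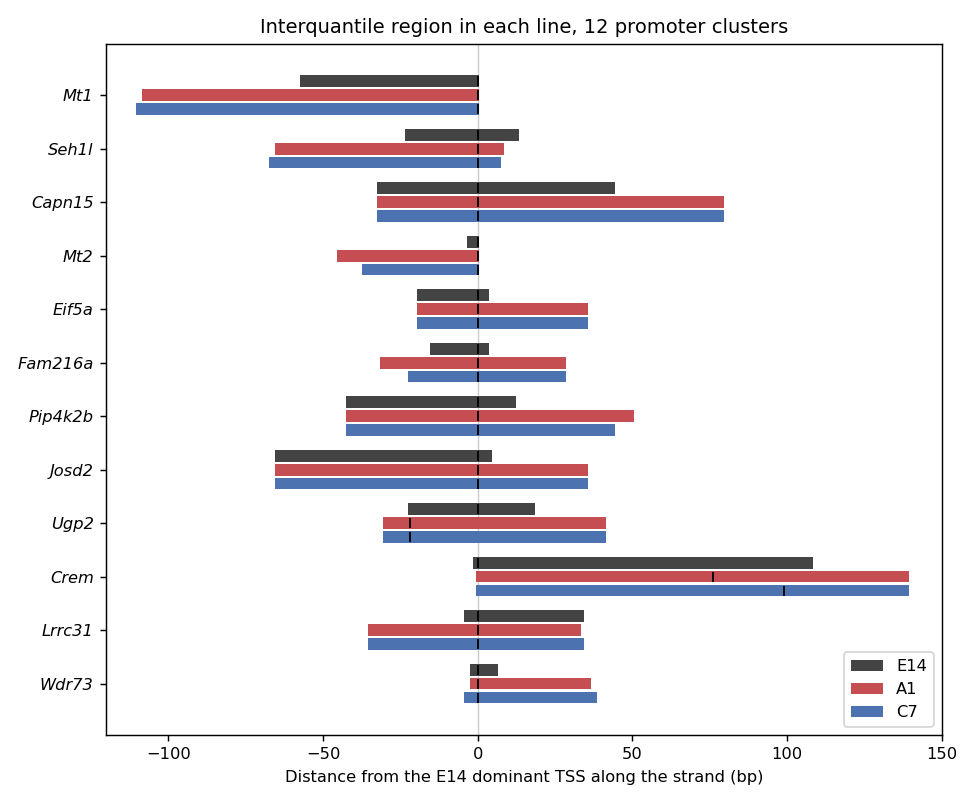
Interquantile regions of the 12 protein-coding promoter clusters with the largest smaller gain of the 2 clones, as horizontal bars for E14, A1 and C7 against distance from the E14 dominant TSS in bp, with downstream to the right. Black ticks mark the dominant TSS of each line, which moved at Ugp2 and Crem only, and Mt1, Seh1l, Mt2 and Lrrc31 extended to the left whereas the other 8 extended mainly to the right.

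Over all 1951 members the median interquantile width was 27 bp in E14 (quartiles 12 and 42) and 35 bp in each clone (quartiles 22 and 51). The median gain was 7 bp in A1 and 7 bp in C7, and the smaller of the 2 gains reached 51 bp at most. Most gains were small. The smaller gain was exactly 3 bp at 451 members, with median widths of 29, 33 and 33 bp in E14, A1 and C7. It was 2 bp at 613 clusters just outside the rule, with medians of 30, 32 and 32 bp. It was at least 10 bp at 550 members and at least 20 bp at 79. A1 and C7 shared both edges of the region at 1065 members (54.6%), against 68.8% of all compared clusters. A1 was wider than C7 at 448 and narrower at 412. Hence neither clone was the wider one throughout.

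As a background for these counts, 11.1% of the 31968 clusters were at least 3 bp wider in A1 than in E14 and 5.61% narrower, and in C7 the shares were 10.2% and 5.57%. Between the clones themselves, A1 was at least 3 bp wider than C7 at 8.87% of clusters, and C7 wider than A1 at 7.82%. Differences of this size were thus common between 2 lines of the same genotype too, and there they were split more evenly between the 2 directions. E14 and C7 had 3 merged libraries and A1 had 2, and the part of depth in the widths was not tested.

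The shape of a cluster in E14 set how much room it had to change, since the outer bounds were the same in the 3 lines by the rule. Members were large clusters with a median total width of 57 bp, against 16 bp over all compared clusters, and the E14 region took 47.7% of that width (median). In the narrower set it took 85.6%, and over all compared clusters 100%. None of the 1951 members filled its cluster in E14, which the rule requires, whereas 215 of the 654 narrower clusters (32.9%) and 53.8% of all compared clusters did. Among clusters with an E14 region of 1 to 2 bp, 2.82% were wider and none could be narrower by 3 bp. From 20 to 39 bp the shares were 8.99% wider and 2.84% narrower, from 40 to 79 bp 11.8% and 6.40%, and from 80 bp upwards 13.4% and 11.6%. In the widest class the 95% Wilson intervals of the 2 shares overlapped (10.5 to 17.0% and 8.89 to 14.9%). There, the excess of wider over narrower clusters seen at smaller widths was 1.16 to 1, against 2.98 to 1 over all clusters.

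**Figure D2:**
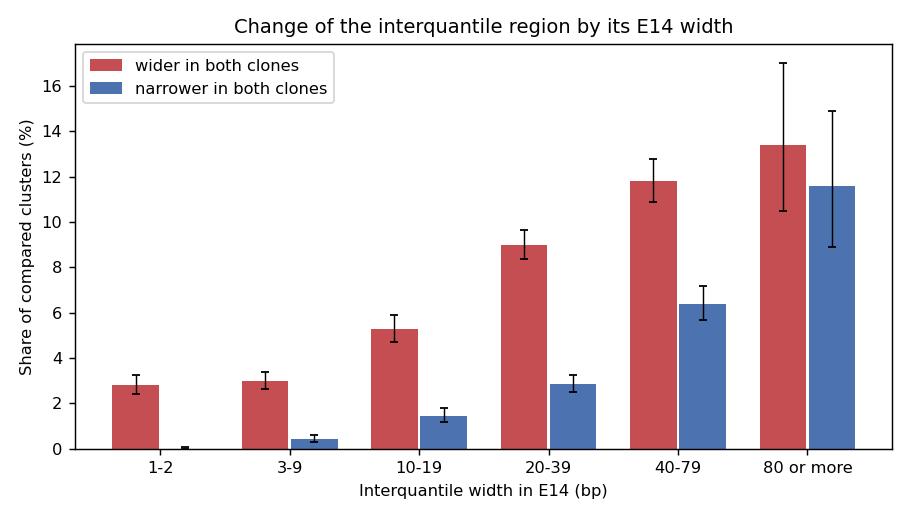
Share of compared clusters (%) that were at least 3 bp wider (red) or narrower (blue) in both clones, by interquantile width in E14 in bp. Error bars are 95% Wilson intervals, which cover counting error only, and both shares were higher in wider classes, with 13.4% wider and 11.6% narrower at 80 bp or more.

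By position, 1530 members (78.4%, 95% Wilson interval 76.5 to 80.2%) had their E14 dominant TSS no more than 500 bp away from the start of a transcript of that strand and are called annotated promoters. Another 240 (12.3%) were intergenic, 114 (5.84%) exonic and 67 (3.43%) intronic. Over all compared clusters promoters made up 60.7%, and in the narrower set 76.6%, so both sets held a larger share of promoters than the whole. Read the other way, 7.88% of promoter clusters were wider and 2.58% narrower. The shares were 4.42% and 1.33% of intergenic clusters, 2.73% and 1.13% of exonic clusters, and 2.27% and 1.15% of intronic clusters. Promoter regions were broad, and within E14 widths of 20 to 39 bp the shares wider were 10.0% at promoters, 6.63% at intergenic, 6.46% at intronic and 3.02% at exonic sites. At that width 16 of 530 exonic clusters were wider (interval 1.87 to 4.85%) and 18 narrower (3.40%, 2.16 to 5.30%), so neither direction led. At 3 to 9 bp 2.50% of exonic clusters were wider and 0.326% narrower. The order of the categories was not the same at other widths. From 40 to 79 bp the shares wider were 11.9% at promoters, 11.2% at exonic, 13.2% at intronic and 9.36% at intergenic sites, and from 1 to 2 bp they were 3.64% at promoters and 5.01% at intergenic sites.

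**Figure D3:**
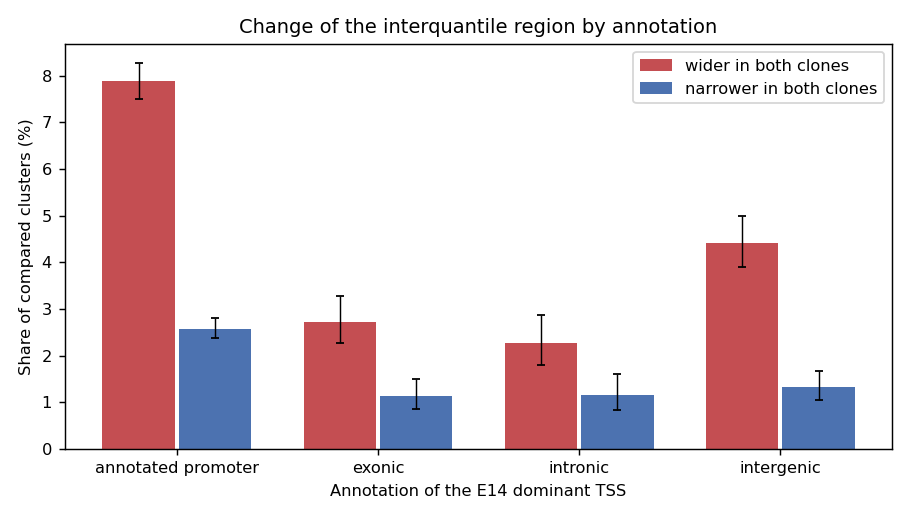
Share of compared clusters (%) wider (red) or narrower (blue) by at least 3 bp in both clones, for annotated promoters, exonic, intronic and intergenic clusters. Error bars are 95% Wilson intervals for counting error only, and promoters had the highest share in both directions, 7.88% and 2.58%.

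The members were spread over the genome. On each of 20 chromosomes, more clusters were wider than narrower, with 4.46 to 7.41% wider and 1.28 to 2.62% narrower. On the mitochondrial genome it was the reverse, with 4 wider and 8 narrower clusters. Of the 1530 promoter members, 1426 belonged to protein-coding genes and 71 to long noncoding genes. The nearest transcript start lay a median of 12 bp from the E14 dominant TSS. In total, 1605 genes had at least 1 member, 90 had at least 2, and 70 had both a wider and a narrower cluster. At protein-coding promoters, 1367 of the 10778 genes with compared clusters had a wider one. The most in 1 gene was 4, at Atrx, a chromatin remodeller gene, at Malat1, an abundant nuclear long noncoding RNA, and at Slc3a2, which encodes the heavy chain of amino acid transporters. Atrx and Malat1 each had a narrower cluster too. The clusters compared in each of these genes were not counted, so their numbers of members are not shares.

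The downstream edge gave most of the gain in both clones at 1063 members (54.5%, interval 52.3 to 56.7%) and the upstream edge at 703 (36.0%). At the other members, 183 had no side in common and 2 gained evenly. In the narrower set it was the upstream edge that more often drew in, at 364 of 654 clusters (55.7%, interval 51.8 to 59.4%), against 225 (34.4%) for the downstream edge. At promoters alone the shares were 55.2% downstream and 34.2% upstream for the wider set and 59.3% upstream and 30.3% downstream for the narrower set. Outside promoters the narrower set was small and showed no such lead of the upstream edge. Its upstream and downstream shares were 42.6% and 44.7% at 47 exonic, 44.1% and 47.1% at 34 intronic and 44.4% and 50.0% at 72 intergenic clusters. The intervals of the upstream shares were wide (29.5 to 56.7%, 28.9 to 60.5% and 33.5 to 55.9%). In the wider set the downstream share was 51.8% at exonic, 58.2% at intronic and 50.4% at intergenic members, against 43.9%, 34.3% and 44.2% for the upstream edge. The downstream and upstream intervals overlapped at exonic (42.7 to 60.7% and 35.1 to 53.0%) and intergenic members (44.1 to 56.7% and 38.0 to 50.5%), so no lead is shown there. Where a side could be named, the movement was mostly of that edge alone. The upstream edge had not moved in either clone at 68.7% of the members that widened downstream, and the downstream edge had not moved at 72.3% of those that widened upstream. The median movement of the downstream edge was 7 bp in each clone, and of the upstream edge 7 bp in A1 and 6 bp in C7.

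**Figure D4:**
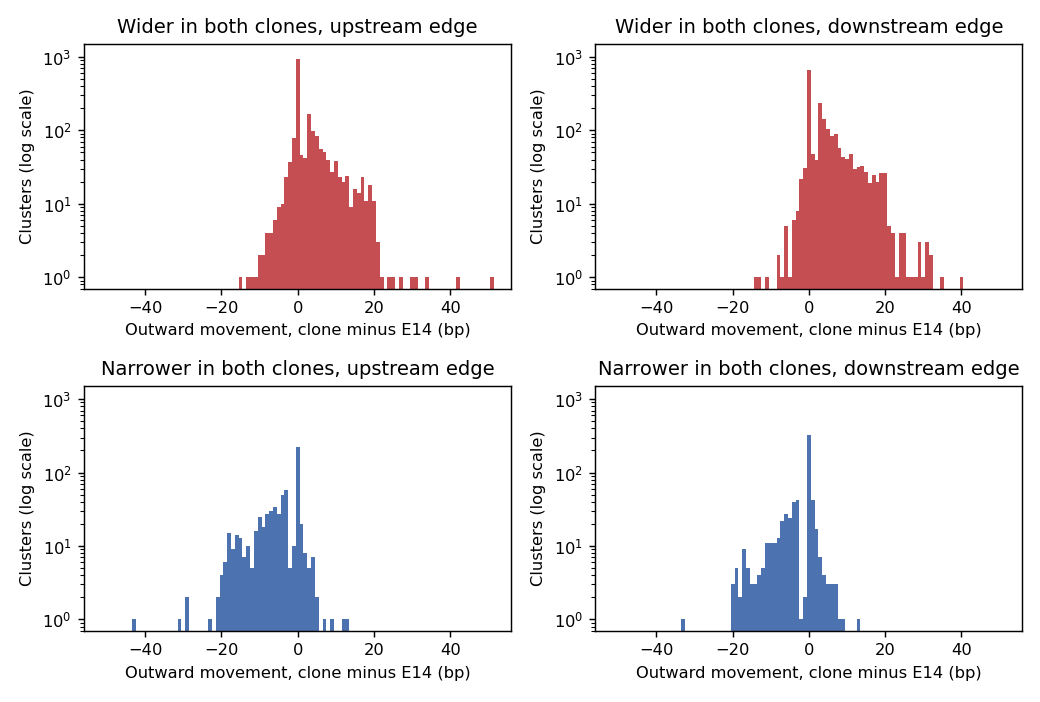
Outward movement in bp of the upstream and downstream edge of the interquantile region (smaller movement of the 2 clones, in the direction of the set), as counts of clusters on a log scale, for the 1951 wider (red) and 654 narrower (blue) clusters. A tall bar at 0 stands for edges that did not move, and few edges moved by more than 20 bp in either set.

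The dominant TSS was at the same base in the 3 lines at 1451 members (74.4%), at 74.2% of the narrower clusters and at 66.4% of all compared clusters. It lay further downstream in both clones at 85 members and further upstream in both at 80. The widening was thus mostly a change at the flanks around a dominant base that stayed where it was. At promoters, the base before the dominant TSS was C or T and the TSS itself A or G, the usual initiator step, at 81.7% of members whose bases were covered (interval 79.6 to 83.7%, 1391 of 1530 covered). The share was 77.1% in the narrower set and 74.5% over all promoter clusters compared. At exonic clusters the step was present at 23.7% of members (interval 16.8 to 32.3%) and 23.9% of the narrower set (13.9 to 37.9%), and at 10.4% of all compared. Of all compared exonic clusters, 1827 of 4172 had an E14 region of 1 or 2 bp, as had 36 of the 114 members and 0 of the narrower set. The shares at promoters and exons were not matched for width. In the stretch gained downstream at promoters the GC content was 66.9%, against 67.5% in the E14 region of the same clusters, and in the stretch gained upstream it was 66.2%, against 64.9%.

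Among exonic members, 72 were within coding sequence, 25 within 3′ UTRs, 6 within 5′ UTRs and 11 within other, noncoding exons, which can belong to protein-coding genes too. The largest gains in coding sequence were at Ctcf, the insulator protein gene, with 2 bp in E14, 24 bp in A1 and 35 bp in C7 (chr8:105677250-105677284, plus strand). Hspa5, which encodes the endoplasmic reticulum chaperone BiP, had 42, 75 and 64 bp. Top1, the gene of DNA topoisomerase I, went from 15 bp to 35 bp in both clones, and Calr, the gene of the chaperone calreticulin, from 1 bp to 20 bp in both. The noncoding gene 2010300F17Rik had 40 bp in E14 and 62 bp in both clones. In the sequences above, G or C made up 6 of 20 gained bases at Hspa5, 7 of 20 at Top1 and 5 of 19 at Calr. At 2010300F17Rik they made up 10 of the 20 gained bases next to the old edge. The 20 bases shown for Mt1 and Eif5a hold 14 each, but those of the Sox2 promoter 2 of 12. These are single members, and the GC content gained was not counted over all exonic members.

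Away from promoters the region in the clones often came to span the whole cluster. It did so in both clones at 56.1% of exonic members (interval 47.0 to 64.9%), 55.2% of intronic and 58.3% of intergenic members, and at 15.8% of promoter members. Over all compared clusters the region spanned the whole cluster in both clones at 75.6% of exonic, 78.8% of intronic, 69.1% of intergenic and 35.6% of promoter clusters. Those shares include clusters that already filled their bounds in E14, which 53.8% of all compared clusters did and no member could. They are therefore not a like background for the members. The exonic clusters of that kind were small, with a median of 15.5 bp in all and an E14 region of 2.50 bp. Top1 and Calr are examples, and so are clusters in the introns of Tfcp2l1, a transcription factor gene of naive pluripotency (1, 21 and 21 bp), Vkorc1l1 (3, 23 and 23 bp), Il4i1, which encodes an amino acid oxidase (9, 29 and 29 bp), and Srsf10, a splicing factor gene (7, 26 and 26 bp). Gm47283 on chromosome Y (1, 21 and 21 bp) had 3 wider and 4 narrower clusters. The largest intergenic gain, at chr6:28966023-28966052 on the minus strand, went from 1 bp in E14 to 30 bp in both clones. Those at chr1:119054728-119054785 and chr12:111537901-111537944, both on the minus strand, had 7, 35 and 35 bp and 16, 41 and 44 bp. At chr13:97501307-97501354 on the plus strand the widths were 2, 26 and 26 bp.

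In the pathways of gene expression, translation factor genes (Eif and Eef symbols, which include a few of their modifying enzymes) had 18 wider and 4 narrower among 142 promoter clusters. That is 12.7% (interval 8.17 to 19.1%) and 2.82%, where all protein-coding promoters had 8.04% (1426 of 17744) and 2.66%. The 142 clusters came from 63 genes and the 18 wider ones from 15. Clusters of 1 gene are not independent, which the interval does not cover, and its lower limit is close to 8.04%. This list had the highest share of the 11. It was chosen with earlier results of these data known, and its share was not tested. Besides Eif5a, the wider clusters of the list included Eif4g3, a scaffold of the cap-binding complex (17, 36 and 36 bp in E14, A1 and C7), Eif4g2 with 2 clusters (13, 30 and 30 bp and 9, 14 and 14 bp) and Eef1a1, the elongation factor gene, with 2 (23, 38 and 35 bp and 17, 30 and 30 bp). The cytosolic ribosomal protein genes, which use sharp promoters of a distinct type, had 10 wider and 9 narrower among 243 clusters (4.12% and 3.70%). These clusters came from 81 genes, so not all are main promoters. Their median E14 width was 10 bp, against 22 bp over all protein-coding promoters, and the shares were not matched for width. Rpl18 held both kinds, a wider cluster of 11, 22 and 22 bp and a narrower one of 38, 30 and 30 bp, and Rpl5 had a wider one of 2, 12 and 11 bp. The wider clusters lay at -220 bp (Rpl18) and 62 bp (Rpl5) from the nearest annotated start.

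Genes for splicing and RNA binding lay near the background. Spliceosome and SR protein genes had 10 wider and 4 narrower among 138 clusters, with Srrm1 (3, 21 and 22 bp) and Srrm2 (29, 45 and 44 bp) as the largest gains. The hnRNP genes had 9 wider among 100. Hnrnpd had 3 of the wider ones, with 1, 21 and 21 bp in the first, 16, 41 and 35 bp in the second and 2, 12 and 12 bp in the third, and these share 1 promoter region and are not independent. Proteasome genes had 4 wider among 43 (9.30%, interval 3.68 to 21.6%) and none narrower (upper limit 8.20%, above the background). Their largest gains were at Psma4 (35, 41 and 41 bp) and Psmb2 (34, 41 and 40 bp). Oxidative phosphorylation genes had 10 wider and 4 narrower among 140 (7.14% and 2.86%), with Cox6a1 of cytochrome c oxidase (25, 43 and 43 bp) first and Atp5g3 of ATP synthase (11, 17 and 28 bp) next. DNA replication genes had 5 wider among 54 (9.26%, interval 4.02 to 19.9%) and none narrower (upper limit 6.64%, above the background). Their gains were small, as at Gins1 (41, 47 and 47 bp) and Mcm7 of the replicative helicase (31, 37 and 44 bp). Heat shock chaperone genes had 12 wider and 3 narrower among 152 (7.89% and 1.97%), including Cct3 of the cytosolic chaperonin (66, 81 and 87 bp) and Hspb1 (22, 52 and 32 bp). At Hspb1 the clones differed from each other by more than C7 differed from E14.

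Of the core pluripotency genes, 3 clusters of 54 were wider and 3 narrower (5.56% each, interval 1.91 to 15.1%). A cluster of Pou5f1, which encodes OCT4, had 15 bp in E14 and 35 bp in both clones. It lay 231 bp inside the nearest annotated start. One at Sox2 had 18, 30 and 39 bp and lay at -409 bp from the nearest start. Dppa2 held both kinds, and Dppa5a (120, 112 and 106 bp) and Zfp42 (35, 32 and 32 bp) were narrower. Among genes of PWWP2A/B and its NuRD partners, Mta2 (80, 105 and 105 bp), Hdac2 (30, 37 and 37 bp) and Rbbp7 (77, 84 and 82 bp) were wider and none was narrower, in 36 clusters. That is 8.33% wider (interval 2.87 to 21.8%), close to the 8.04% of all protein-coding promoters, and the upper limit for the narrower share is 9.64%. Polycomb genes had 5 wider and 4 narrower among 69, with Ezh2, the H3K27 methyltransferase gene (48, 60 and 61 bp), and Jarid2 (81, 89 and 86 bp) wider, the latter with a narrower cluster as well (10, 3 and 3 bp). The median change over all clusters of each list was 0 bp in both clones, as it was over all protein-coding promoters.

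**Figure D5:**
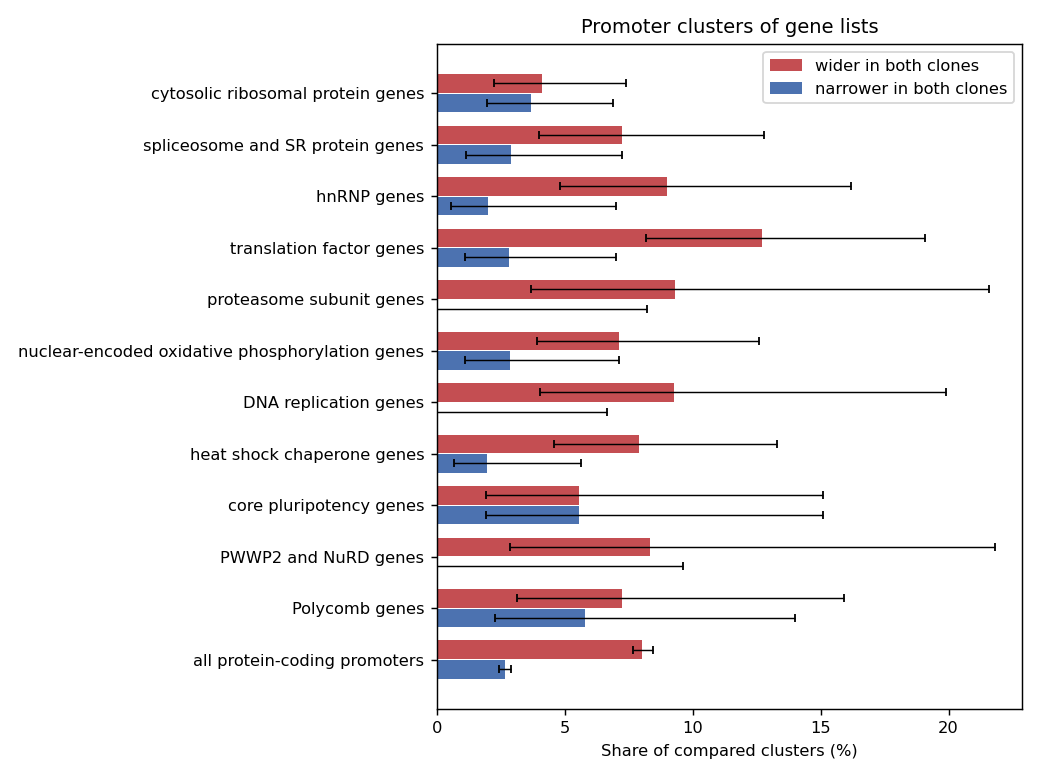
Share of promoter clusters (%) wider (red) or narrower (blue) by at least 3 bp in both clones, for 11 gene lists and for all protein-coding promoters. Error bars are 95% Wilson intervals for counting error only, and translation factor genes had the highest share wider, 12.7%, with most intervals spanning the 8.04% of all protein-coding promoters.

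At the genes whose start site profiles the study displays, the region was wider in both clones at 1 promoter cluster each of Wtap and Nap1l1. The Nap1l1 cluster (chr10:111473135-111473272, plus strand), of a histone chaperone gene, had 10 bp in E14 and 34 bp in both clones, all gained downstream, while none of its other 4 promoter clusters, 4 exonic clusters and 1 intronic cluster met the rule. At Wtap, a subunit gene of the m6A methyltransferase complex, the cluster at chr17:12992581-12992610 on the minus strand had 20 bp in E14 and 30 bp in both clones, and 3 others did not meet the rule. None of the 9 promoter, 2 exonic and 1 intronic clusters of Hnrnpk met it, nor did the 4 exonic clusters of Ptges3, and the promoter cluster of Ptges3 had 192 bp in E14 and A1 and 169 bp in C7. The study displays Hnrnpk, Nap1l1 and Ptges3 for the level of initiation inside the gene. That is another measure than width, and cluster lists without signal values cannot show it.

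The narrower set mirrored the members in size of change, with medians of 39 bp in E14, 30 bp in A1 and 30.5 bp in C7. The smaller loss was at least 10 bp at 181 clusters and at least 20 bp at 17. Ppib, the gene of cyclophilin B, led it with 92 bp in E14, 49 bp in A1 and 48 bp in C7, drawn in from the upstream side. Aifm1, a mitochondrial flavoprotein gene, had 123, 92 and 79 bp, and Kazn had 82, 54 and 53 bp. The scavenger receptor gene Colec12 (52, 31 and 31 bp) and the splicing-related gene Scaf11 (101, 76 and 80 bp) also lost bases upstream, and Anapc10, of the anaphase-promoting complex, lost them downstream (116, 96 and 96 bp). In exons, the largest losses were of 20 bp in both clones, in the 3′ UTR of Cyb5r3 (32, 12 and 12 bp) and in coding sequence of Hmgb2 (61, 41 and 41 bp).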

How the data were processed

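Libraries were prepared from nuclear RNA with a CAGE kit that has no PCR step, and read single end. Reads were aligned by the authors against mm10 (STAR 2.4.2a in the submitters' processing notes), and only uniquely placed ones were kept. Replicates were pooled by line ahead of tag clustering in CAGEr. The deposited file has 1 track per line and gives positions in bp, namely cluster bounds, dominant TSS and, as the longest block of a row, the interquantile region from quantile 0.1 to quantile 0.9. The score in the file is 0 throughout and was not used.

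Members were clusters with identical bounds in the 3 lines and a region at least 3 bp wider than E14 in both clones. Edges were oriented by strand, and a side was named where it gave most of the change in both clones. Categories came from GENCODE M21 on GRCm38, the assembly of mm10, by the E14 dominant TSS, with a promoter window of 500 bp, then exon, intron and intergenic. Gene symbols are those of GENCODE. Bases were read from RefSeq promoters (GRCm38.p6, 250 bases before to 50 after each start) or GENCODE transcripts. A search for promoter motifs (TATA box, GC box and CCAAT box) in the 150 bases before the TSS was not run, since the bases covered 61.7% of promoter members, below the minimum of 80%. Wilson intervals of 95% are given for shares and cover only counting error. Clusters of a line are not replicates and no p-value was calculated. Python 3.11.15, NumPy 2.4.6, SciPy 1.17.1 and Matplotlib 3.10.9 were used. The reading of interquantile regions and the edge movements, calls and sides were tested on simulated regions with known answers. The promoter category was run at positions within 500 bp of annotated starts. These are promoters by its definition, so the run checked the code only, and the other categories were not run. The RefSeq and GENCODE bases were compared where both covered a stretch. The other steps were not tested in this way.

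The members and the gene lists were chosen with earlier results of these data known. The genes named are those with the largest smaller change of the 2 clones: 12 at protein-coding promoters, 5 exonic, 5 intronic, 4 intergenic, 5 with the same region in both clones, 6 narrower promoters, 2 narrower exonic clusters, up to 2 per gene list, and the genes the study displays. Other list members, and genes with several members, were named after their values were seen.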

Additional observations from a re-analysis of the deposited data

How the results depend on the processing

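No paired analysis was possible because the replicates of each line were merged before clusters were called, and no result comes from a test. For the same reason no library could be left out. The number of members depends on the threshold. With at least 1, 5 and 10 bp, 3969, 1216 and 550 clusters were wider and 1241, 427 and 181 narrower. With at least 3 bp and 20% of the E14 width they were 1114 and 307, in A1 alone 3541 and 1792, and in C7 alone 3245 and 1782. Matching clusters by overlap, using chromosomes 1 to 19 and X only, or requiring 3 bp in E14 left both counts within 1.5 times (1779 to 1990 wider and 638 to 684 narrower). Wider clusters outnumbered narrower ones under each of these 9 alternatives.

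The share of annotated promoters moved with its definition. It was 69.1% of wider and 65.3% of narrower clusters where the promoter window was 100 bp, 80.9% and 79.8% where it was 1000 bp, 82.4% and 80.9% with strand ignored, 70.5% and 69.3% with protein-coding transcripts only, and 73.6% and 70.7% for changes of at least 10 bp. The midpoint of the E14 region in place of its dominant TSS left it at 78.4% and 76.6%. The downstream share of the wider set was 57.3% when an edge had to move by 3 bp in both clones and 59.6% for gains of at least 10 bp, and the upstream share of the narrower set was 64.6% for losses of at least 10 bp. The median E14 width of members was 21 bp for gains of at least 10 bp, and the whole clusters of all 1951 members had a median width of 57 bp. Of the 11 gene lists, 10 had more wider than narrower clusters, 9 with a window of 1000 bp and 11 at a threshold of 1 bp. The initiator step at the dominant TSS of A1 or C7 in place of E14 gave 81.0% and 81.9%. The causes of these movements were not tested. Without signal values, the precision of an edge is unknown.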

Other observations

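The partner keratins Krt8 and Krt18, which form the intermediate filaments of simple epithelia, were both in the narrower set. They were singled out after their values were seen. A promoter cluster of Krt8 (chr15:102004311-102004342, minus strand) had an interquantile region of 25 bp in E14 and 5 bp in both clones, and one of Krt18 (chr15:102028200-102028250, plus strand) had 27 bp in E14, 5 bp in A1 and 7 bp in C7. Their E14 dominant TSSs lay 168 bp (Krt8) and 48 bp (Krt18) inside the nearest annotated start. At both genes the upstream edge drew in while the dominant TSS stayed at the same base in the 3 lines, which is the opposite of the upstream gain at the partner genes Mt1 and Mt2.

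Members with a region of 1 or 2 bp in E14 numbered 172 (8.82%), against 19.1% of all compared clusters. The smaller gain was 18 to 20 bp at 11 of 114 exonic, 6 of 67 intronic and 17 of 240 intergenic members, and at 62 of 1530 promoter members.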
